A study of Mus musculus with 18 samples.

Results

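The SOCS family is a set of intracellular proteins that end cytokine signalling, and its genes are Cish and Socs1 to Socs7. All rows of the deposited gene count table whose symbol is one of these 8 names were taken, and each name matched 1 row of the 53465 genes in the table. The members were described across 18 RNA-seq libraries of microglia and macrophages that were sorted from the injured spinal cord of mice. All 8 passed the filter on low counts in every comparison.

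Cytokines such as IL-4 and IL-13 act through receptors that carry JAK kinases, which phosphorylate STAT transcription factors, and STAT6 is the main factor downstream of both cytokines. SOCS genes are classic feedback targets of this route: several of them are transcribed when STATs are active, and their proteins then block the receptor or its kinases, or tag them for degradation through a SOCS box that recruits an E3 ubiquitin ligase. SOCS1 and SOCS3 can inhibit JAK kinases directly, CIS (the product of Cish) and SOCS2 bind phosphorylated receptors and are best known as inhibitors of STAT5 signalling, and SOCS4 to SOCS7 are less studied members, some of which act on growth factor and insulin receptors.

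The mice were adult C57BL/6J females with a contusion of the spinal cord (SCI). At 48 h after SCI, 3 mice received PBS, the vehicle, into the cord, 3 received recombinant IL-13 (rIL-13) and 3 received recombinant IL-4 (rIL-4), so that every mouse was injured and injected. Microglia, the resident myeloid cells of the cord, and infiltrated macrophages were sorted from each mouse 24 h later on CD45, CD11b and F4/80, which gave 6 groups of 3 libraries from 9 mice. No uninjured or uninjected mice were among the samples, and a single time after injection was measured.

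Library totals were between 35961305 and 45849829 counts. Levels are given as CPM, counts scaled to the size of the library with TMM normalization over the 18 libraries, as mean ± SD of 3 mice. The sorted populations carried the markers of their labels, since 9 of 9 microglial markers were higher in microglia than in macrophages of PBS mice and 7 of 8 macrophage markers were lower. Markers of other cells were present too, and their sums differed between groups. The 9 microglial markers summed to between 6392 and 11447 CPM in PBS microglia, between 2909 and 7403 CPM with rIL-13 and between 2676 and 4595 CPM with rIL-4. In macrophages the same list summed to between 2902 and 4491 CPM with PBS, 1137 and 2374 CPM with rIL-13 and 466 and 874 CPM with rIL-4. The 9 fibroblast and pericyte markers summed to between 2531 and 3700 CPM in PBS microglia, 1306 and 8301 CPM with rIL-13 and 230 and 1607 CPM with rIL-4, and to at most 9.50 CPM in macrophages. The 7 endothelial markers summed to between 861 and 1851 CPM in PBS microglia, 1656 and 2765 CPM with rIL-13 and 1968 and 2602 CPM with rIL-4, and in macrophages to between 46.4 and 57.4 CPM with PBS, 132 and 215 CPM with rIL-13 and 207 and 417 CPM with rIL-4. The 8 neutrophil markers summed in macrophages to between 995 and 1608 CPM with PBS and 257 and 873 CPM with rIL-4, and to 570, 3117 and 556 CPM in rIL-13 mice 5, 6 and 7. Of 13 lists summed, the immediate early and stress genes below included, PBS and rIL-4 mice did not overlap in 6 in microglia and 12 in macrophages, and PBS and rIL-13 mice in 2 and 6. In rIL-4 macrophages these also included the monocyte-derived macrophage markers (5386 to 7186 CPM beside 3176 to 4085 with PBS), the T and NK cell markers (86.9 to 116 beside 176 to 203), the oligodendrocyte markers (68.9 to 75.6 beside 108 to 155) and the dendritic cell markers (9.01 to 18.5 beside 23.9 to 51.6). In rIL-4 microglia they included the astrocyte markers (33.5 to 54.8 beside 74.8 to 104). With rIL-4, 3 of the 9 microglial, 1 of the 9 fibroblast and 0 of the 7 endothelial markers were lower by edgeR in microglia and 0 of these were higher. In macrophages 9 of 9 microglial and 1 of 8 neutrophil markers were lower, and of the endothelial markers 2 were higher and 4 lower. At most 1 of the 7 endothelial markers and at most 3 of the 8 neutrophil markers were at 0 in a library. The part of such cells in the values of the SOCS genes was not tested, and in bulk samples fewer cells of a type and less RNA per cell cannot be told apart.

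Promoters are shown because SOCS genes are known targets of STAT factors, whose palindromic sites contain TTCNNNGAA. They are those of the 3 members that were DE (differentially expressed) against PBS and had an entry in the promoter table. RefSeq's promoters of GRCm38.p6 hold 250 bases before and 50 bases from the transcription start and had an entry for 4 of the 8 members (Cish, Socs1, Socs3 and Socs4). They had none for Socs2 and Socs5, which were DE too, or for Socs6 and Socs7. In these sequences, written 5′ to 3′ on the gene's strand, capitals mark TTCNNNGAA.
Cish (chr9:107296409-107296708, plus strand): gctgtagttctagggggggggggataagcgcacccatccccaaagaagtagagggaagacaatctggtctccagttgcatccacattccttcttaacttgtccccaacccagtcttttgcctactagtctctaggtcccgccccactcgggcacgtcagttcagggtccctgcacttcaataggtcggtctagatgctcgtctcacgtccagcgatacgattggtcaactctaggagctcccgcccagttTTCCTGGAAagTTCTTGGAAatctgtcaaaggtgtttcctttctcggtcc
Socs3 (chr11:117969317-117969616, minus strand): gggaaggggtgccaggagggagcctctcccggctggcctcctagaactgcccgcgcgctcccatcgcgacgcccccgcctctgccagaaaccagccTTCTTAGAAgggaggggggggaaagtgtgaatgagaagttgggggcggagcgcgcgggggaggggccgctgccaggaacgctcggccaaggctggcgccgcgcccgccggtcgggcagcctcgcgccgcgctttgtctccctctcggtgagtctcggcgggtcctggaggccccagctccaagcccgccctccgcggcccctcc
Socs1 (chr16:10785487-10785786, minus strand): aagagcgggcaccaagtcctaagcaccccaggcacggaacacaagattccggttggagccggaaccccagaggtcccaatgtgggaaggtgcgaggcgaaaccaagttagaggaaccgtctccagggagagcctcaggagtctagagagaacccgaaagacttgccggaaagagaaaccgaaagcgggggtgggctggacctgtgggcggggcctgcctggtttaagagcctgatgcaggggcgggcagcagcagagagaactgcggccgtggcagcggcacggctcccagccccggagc

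The Cish window held TTCNNNGAA at 2 places, TTCCTGGAA from base 1 to 9 and TTCTTGGAA from base 12 to 20, counted from RefSeq's transcription start as base 1. The GENCODE M21 gene models of Cish and Socs3 begin upstream of these windows, at bases 107296026 and 117970047 of their chromosomes. Positions are therefore relative to RefSeq's start only. The Socs3 window held 1, TTCTTAGAA, from 154 to 146 bases before the start. The Socs1 and Socs4 windows held none, and none of the 4 windows held the form that STAT6 can also bind, in which TTC and GAA are spaced by any 4 bases. Searched on both strands, where a palindrome is counted once, TTCNNNGAA occurred in 8.3% of 32851 promoters of the same length, at least 2 copies of it in 0.457%, and the form with a spacer of 4 in 6.95%. A match of letters is a description and not a bound site.

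Socs3 was the most abundant member per kilobase in 5 of the 6 groups. To compare genes, CPM were divided by the length of the longest principal transcript (GENCODE M21), which was between 2222 bases for Socs2 and 7015 bases for Socs7. In PBS macrophages, Socs3 stood at 105 ± 11.8 CPM per kb (SD, n = 3), followed by Socs6 at 11.4 ± 2.12 and Socs4 at 2.77 ± 0.302. The ranges of these 3 did not overlap with each other or with that of Socs2 at 1.57 ± 0.549, the next in the order. Below it came Socs5, Socs1, Cish and Socs7, between 1.11 and 0.560 CPM per kb, and each neighbouring pair from Socs2 to Socs7 overlapped. In PBS microglia, Socs3 stood at 45.7 ± 4.77 CPM per kb, apart from all others. Socs2 came next at 6.15 ± 2.07 and overlapped Socs6 at 3.77 ± 1.17, which overlapped Socs5 at 3.48 ± 0.478. Socs5 was above Socs4 at 2.07 ± 0.151 CPM per kb in every library, and Cish, Socs7 and Socs1 made up the low end at 1.48, 0.627 and 0.472 CPM per kb, with overlap between neighbours.

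The make-up of the family was different in each treatment group. Socs3 took 84.5% ± 2.42 of the summed CPM per kb in PBS macrophages, 66.2% ± 8.96 with rIL-13 and 49.4% ± 2.68 with rIL-4. In microglia it took 71.6% ± 4.23 with PBS, 47.6% ± 6.67 with rIL-13 and 31.4% ± 6.30 with rIL-4. Within each cell type the 3 groups did not overlap in this share. Socs2 held 9.70% ± 3.37 in PBS microglia and 33.9% ± 9.31 in rIL-4 microglia, and Cish held 0.658% ± 0.209 in PBS macrophages and 15.3% ± 2.81 in rIL-4 macrophages. The sum over the family was 124 ± 11 CPM per kb in PBS macrophages, 128 ± 61.0 with rIL-13 and 134 ± 59.7 with rIL-4, so that these groups overlapped in the sum. In microglia the sums were 63.7 ± 3.45, 66.1 ± 6.09 and 79.9 ± 15.7 CPM per kb. In rIL-4 microglia the mean of Socs2 (27.8 ± 12.7 CPM per kb) was above that of Socs3 (24.5 ± 1.16), but only mouse 9 had more Socs2 than Socs3. With the length of all exons joined, an alternative chosen after seeing the data, the order of the means turned, with 6.48 CPM per kb for Socs2 and 21.6 for Socs3, and Socs3 was highest in 6 of 6 groups. The level of Socs2 depends most on this choice. With joined exons it was at 1.43 CPM per kb in PBS microglia, below Socs5 at 2.52, and took place 5 in the order there, place 7 in PBS macrophages and place 5 in treated macrophages. Its share was then 2.90% ± 1.06 in PBS microglia and 13.4% ± 4.82 in rIL-4 microglia, that of Cish 0.347% ± 0.110 in PBS and 9.70% ± 1.98 in rIL-4 macrophages, and that of Socs3 88.6% ± 1.93 in PBS macrophages and 46.1% ± 5.77 in rIL-4 microglia.

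**Figure D1:**
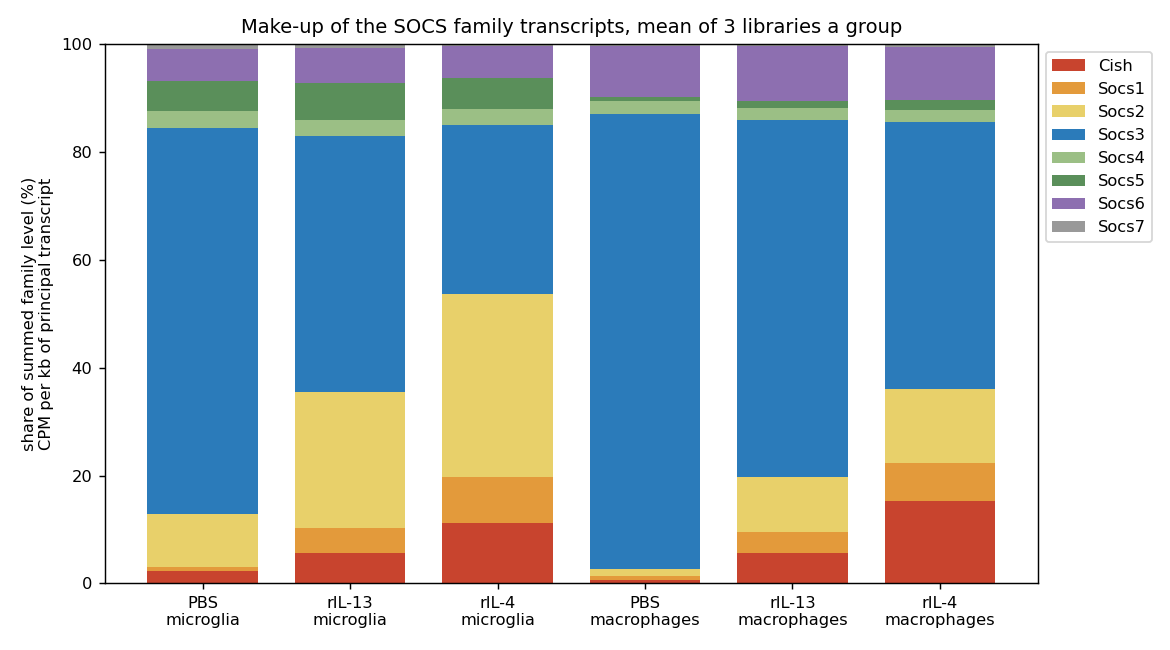
Share of each SOCS gene in the summed CPM per kb of the family, in percent, as the mean of 3 mice for each of the 6 groups. The share of Socs3 was 84.5% in PBS macrophages and 31.4% in rIL-4 microglia.

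Whether each cytokine changed the family was asked within each cell type, against the 3 PBS mice, with edgeR's quasi-likelihood test and an adjusted p under 0.05 over all genes tested as the threshold for differential expression (DE). Both cytokines share the PBS libraries, so the comparisons are not independent. In rIL-4 macrophages 4 members rose (Cish, Socs1, Socs2 and Socs5), where 14% of all 13606 genes tested were DE, 6.77% higher and 7.2% lower. Macrophages of rIL-13 mice had 3 members that rose (Cish, Socs1 and Socs2), where 4.19% of genes were DE, 2.53% higher and 1.66% lower. In rIL-4 microglia 2 members rose (Socs1 and Socs2) and 1 fell (Socs3), where 2.22% of 15566 genes were DE, 1.33% higher and 0.887% lower. Microglia of rIL-13 mice had 1 member that rose (Socs1), where 0.366% of genes were DE, 0.283% higher and 0.0835% lower. In that comparison DESeq2 called 2 members and 2.07% of genes, and a fit of only the 6 libraries compared called 0 members and 0.246% of genes. Socs1 was thus DE in all 4 comparisons, and Socs4, Socs6 and Socs7 in none. Treated and PBS mice did not overlap in 4 members for macrophages with rIL-4 (34.2% of genes) and in 3 with rIL-13 (24.4%). For microglia this held in 5 members with rIL-4 (25.9%) and in 4 with rIL-13 (16.2%).

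**Figure D2:**
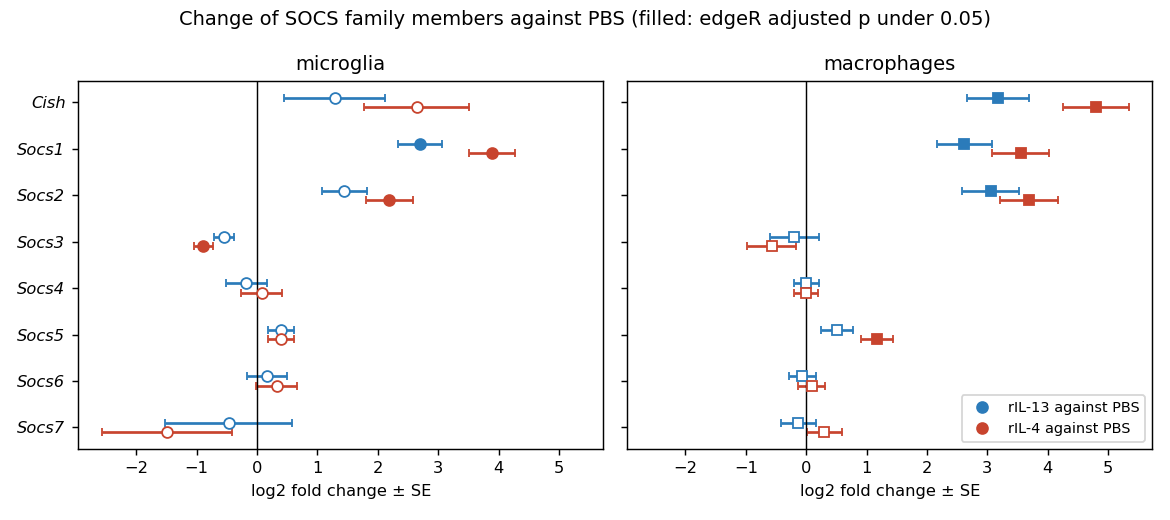
Log2 fold change of the 8 SOCS genes against PBS, by cytokine and cell type, from edgeR's quasi-likelihood fit, with bars of 1 SE and filled points for an adjusted p under 0.05. Cish, Socs1 and Socs2 lie to the higher side in every panel, and Socs3 to the lower side.

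Cish (chr9:107296026-107302784, GRCm38, plus strand, ENSMUSG00000032578.7) was the member with the largest change in rIL-4 macrophages. It stood at 3.36, 1.99 and 1.69 CPM in the macrophages of PBS mice 1, 2 and 3, at 15.5, 32.3 and 13 CPM in those of rIL-13 mice 5, 6 and 7, and at 39.1, 106 and 38.5 CPM in those of rIL-4 mice 8, 9 and 10. Every treated mouse was above every PBS mouse, and every rIL-4 mouse above every rIL-13 mouse. With rIL-4 the gene rose 27.8-fold, with a log2 fold change of 4.80 ± 0.54 (SE) and an adjusted p of 0.000446 by edgeR. With rIL-13 it rose 9.04-fold, with a log2 fold change of 3.18 ± 0.51 and an adjusted p of 0.00791. Socs2 was close to Cish with rIL-13 (3.05 ± 0.47), and without mouse 6 the order turned (2.67 for Cish and 2.71 for Socs2). The rIL-13 call of Cish was lost in a model of all 18 libraries (adjusted p = 0.0553) and without PBS mouse 3 (0.0503), over alternatives that gave between 1.13e-09 and 0.0553. The rIL-4 call held in 12 of 12 alternatives.

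In microglia Cish varied more between mice. It stood at 7.02, 3.14 and 2.45 CPM in PBS mice, at 14.8, 1.62 and 14.1 CPM in rIL-13 mice and at 40.0, 30.4 and 7.75 CPM in rIL-4 mice. The rIL-4 mice were all above the PBS mice, although mouse 10 was above PBS mouse 1 by a small margin, and rIL-13 mouse 6 was below all PBS mice. The microglia of mouse 6 also had the highest fibroblast and pericyte sum of their group (8301 CPM beside 1865 in mouse 5 and 1306 in mouse 7) and the lowest microglial sum (2909 CPM beside 7403 and 5477), and the part of these in its Cish value was not tested. Neither comparison passed edgeR's test, with a log2 fold change of 2.64 ± 0.87 and an adjusted p of 0.173 for rIL-4, and 1.29 ± 0.83 and 0.904 for rIL-13. Without 1 mouse at a time the rIL-13 value ran from 0.90 (without mouse 5) to 1.88 (without PBS mouse 1), with 1.79 without mouse 6, and the rIL-4 value from 2.20 (without mouse 8) to 3.23 (without PBS mouse 1), and none of these passed. DESeq2's Wald test, which called 7.81% of all genes there, gave an adjusted p of 0.0154 for rIL-4, where the alternatives ran from 0.0154 to 0.418. A pair of models on the opposite strand, Gm17040 and Gm17041, overlap Cish, and SMART-seq2 does not keep the strand, so reads of these genes and of Cish cannot be told apart in the shared exons.

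**Figure D3:**
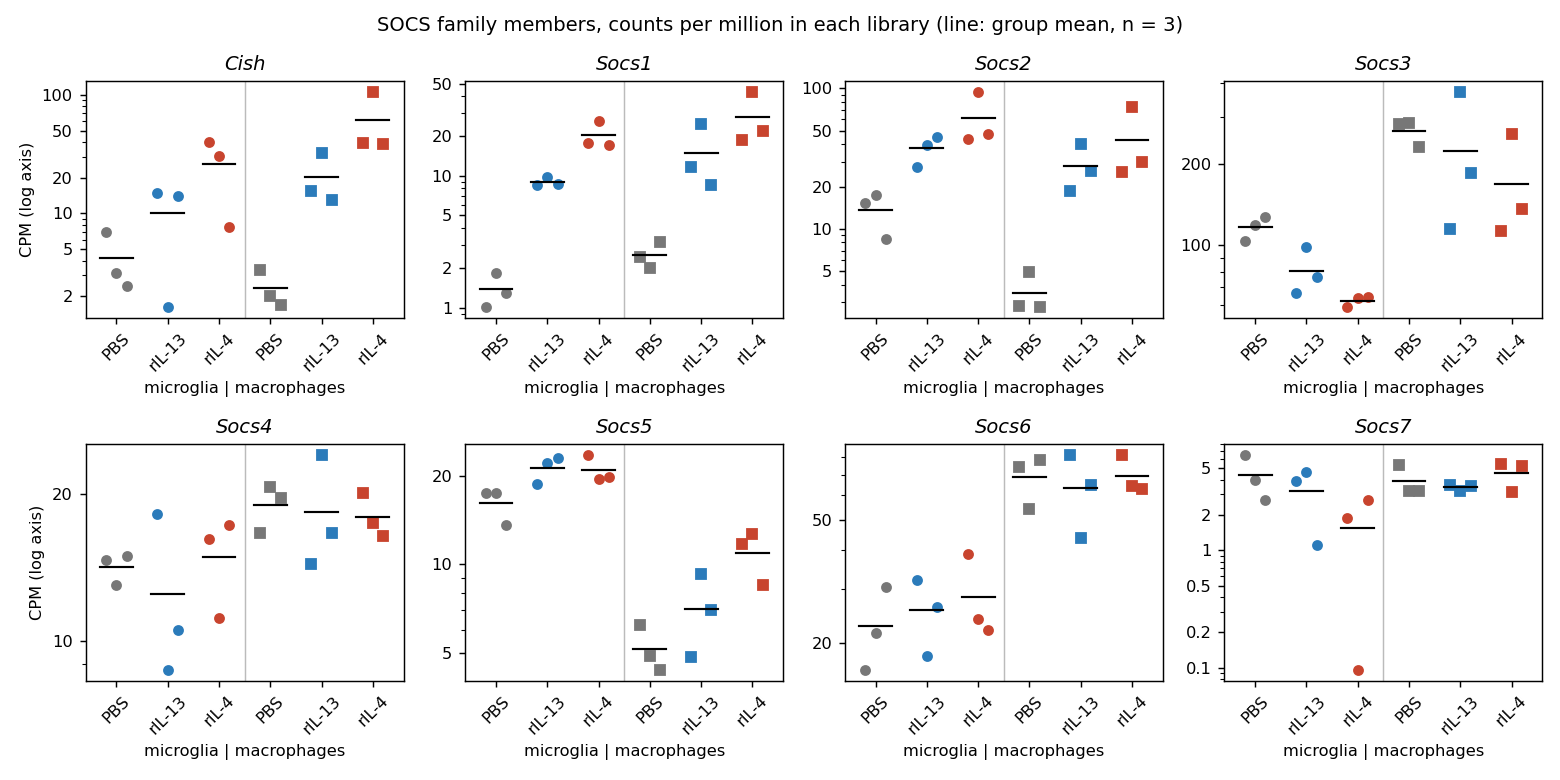
CPM of each SOCS gene in every library on a log scale, with 1 point per mouse and a line at the mean of the 3 mice, for PBS, rIL-13 and rIL-4 in microglia and macrophages. In macrophages Cish lay between 1.69 and 3.36 CPM with PBS and between 38.5 and 106 CPM with rIL-4.

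Socs1 (chr16:10782240-10785536, minus strand, ENSMUSG00000038037.4), an inhibitor of JAK kinases, was higher with either cytokine in both cell types. In microglia it stood at 1.01, 1.83 and 1.28 CPM in PBS mice, at 8.49, 9.84 and 8.64 CPM in rIL-13 mice and at 17.8, 25.9 and 17.0 CPM in rIL-4 mice. The 3 groups did not overlap. The log2 fold change was 3.90 ± 0.38 with rIL-4 (14.9-fold, adjusted p = 0.00138, edgeR) and 2.70 ± 0.36 with rIL-13 (adjusted p = 0.0148). The rIL-4 call held in 12 of 12 alternatives. The rIL-13 call was lost in a fit of only the 6 libraries compared (adjusted p = 0.0942), without PBS mouse 1 (0.0925), without PBS mouse 3 (0.101) and without rIL-13 mouse 7 (0.0562), and its alternatives ran from 4.28e-10 to 0.101.

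In macrophages Socs1 stood at 2.42, 1.99 and 3.15 CPM with PBS, at 11.6, 24.6 and 8.49 CPM with rIL-13 and at 18.5, 43.3 and 22.0 CPM with rIL-4. All treated mice were above all PBS mice, and rIL-13 mouse 6 was within the rIL-4 range. The log2 fold change was 3.55 ± 0.47 with rIL-4 (11.7-fold, adjusted p = 0.00102, edgeR) and 2.62 ± 0.45 with rIL-13 (6.15-fold, adjusted p = 0.0104). The rIL-13 call was lost without PBS mouse 1 (adjusted p = 0.0590) and without PBS mouse 2 (0.0575), over a range from 1.94e-07 to 0.0590.

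Socs2 (chr10:95385362-95417180, minus strand, ENSMUSG00000020027.18), known for restraining growth hormone signalling, started from different levels in the cell types. In macrophages it stood at 2.81, 4.91 and 2.77 CPM with PBS, at 18.6, 39.9 and 25.7 CPM with rIL-13 and at 25.3, 73.2 and 30.1 CPM with rIL-4. Treated and PBS mice did not overlap, while the cytokines did. The log2 fold change was 3.69 ± 0.48 with rIL-4 (12.9-fold, adjusted p = 0.000905, edgeR) and 3.05 ± 0.47 with rIL-13 (8.30-fold, adjusted p = 0.00601). Both calls held in 12 of 12 alternatives, with adjusted p up to 0.00792 and 0.0430.

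In microglia Socs2 stood at 15.2, 17.3 and 8.48 CPM with PBS, at 27.3, 39.3 and 45.2 CPM with rIL-13 and at 43.4, 94.3 and 47.4 CPM with rIL-4. Treated and PBS mice again did not overlap. The log2 fold change was 2.19 ± 0.38 with rIL-4 (adjusted p = 0.0218, edgeR), and 1.44 ± 0.37 with rIL-13, which did not pass (adjusted p = 0.276). The rIL-4 call was lost without PBS mouse 1 (adjusted p = 0.0990), PBS mouse 2 (0.0630) or PBS mouse 3 (0.0888), over a range from 2.19e-06 to 0.0990. DESeq2 called the rIL-13 difference (adjusted p = 0.0176, with the alternatives up to 0.865).

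The macrophages of rIL-13 mouse 6 and of rIL-4 mouse 9 had the highest Cish, Socs1, Socs2 and Socs3 of their groups. These libraries also had the highest neutrophil sums (3117 and 873 CPM) and endothelial sums (215 and 417 CPM) of their groups. Without mouse 6, the log2 fold changes with rIL-13 in macrophages were 2.67 for Cish, 2.05 for Socs1 and 2.71 for Socs2, all still DE by edgeR. Without mouse 9, those with rIL-4 were 4.12 for Cish, 3.07 for Socs1 and 3.04 for Socs2, also still DE.

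Socs3 (chr11:117966079-117970047, minus strand, ENSMUSG00000053113.3), the feedback inhibitor of gp130 and STAT3 signalling, was the 1 member that fell in a comparison with PBS. In microglia it stood at 103, 119 and 127 CPM with PBS, at 66.8, 98.8 and 76.3 CPM with rIL-13 and at 59.0, 63.9 and 64.4 CPM with rIL-4. The 3 groups did not overlap, although rIL-13 mouse 6 was close to PBS mouse 1. With rIL-4 the log2 fold change was -0.89 ± 0.17 (adjusted p = 0.0282, edgeR), and with rIL-13 it was -0.54 ± 0.16 (adjusted p = 0.386). The rIL-4 call was lost in the model of all 18 libraries (adjusted p = 0.123) and without any 1 of the 6 mice (between 0.0702 and 0.127), and held in 5 of 12 alternatives, which ran from 0.000190 to 0.127.

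In macrophages Socs3 stood at 283, 286 and 232 CPM with PBS, at 115, 372 and 186 CPM with rIL-13 and at 113, 258 and 137 CPM with rIL-4. Mouse 6 was above all PBS mice and mouse 9 was within their range, so the groups overlapped. Neither cytokine passed the test, with log2 fold changes of -0.57 ± 0.40 for rIL-4 (adjusted p = 0.400, edgeR) and -0.19 ± 0.40 for rIL-13 (adjusted p = 0.862). Without mouse 9 the rIL-4 value was -1.03 (adjusted p = 0.130), and without mouse 6 the rIL-13 value was -0.77 (adjusted p = 0.265), where the alternatives ran from 0.130 to 0.696 and from 0.265 to 1.

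A list of 14 immediate early and stress genes (such as Fos, Egr1 and Hspa1a), which respond to the handling of cells, differed between the same groups and is given beside it. Their summed CPM was between 1245 and 1449 in PBS microglia, 704 and 885 with rIL-13 and 717 and 1080 with rIL-4. The macrophages had sums of 5134 to 5729 with PBS, 2594 to 5414 with rIL-13 and 3265 to 4346 with rIL-4. At most 1 of the 14 was at 0 in a library. Against PBS, 1 of 14 was lower in microglia with rIL-4 and 0 with rIL-13, and 2 of 13 tested were lower in macrophages with either cytokine. Mice 6 and 9, which had the highest Socs3 among treated macrophages, also had the highest sums of their groups, 5414 and 4346 CPM. The part of this list in the Socs3 values was not tested.

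**Figure D4:**
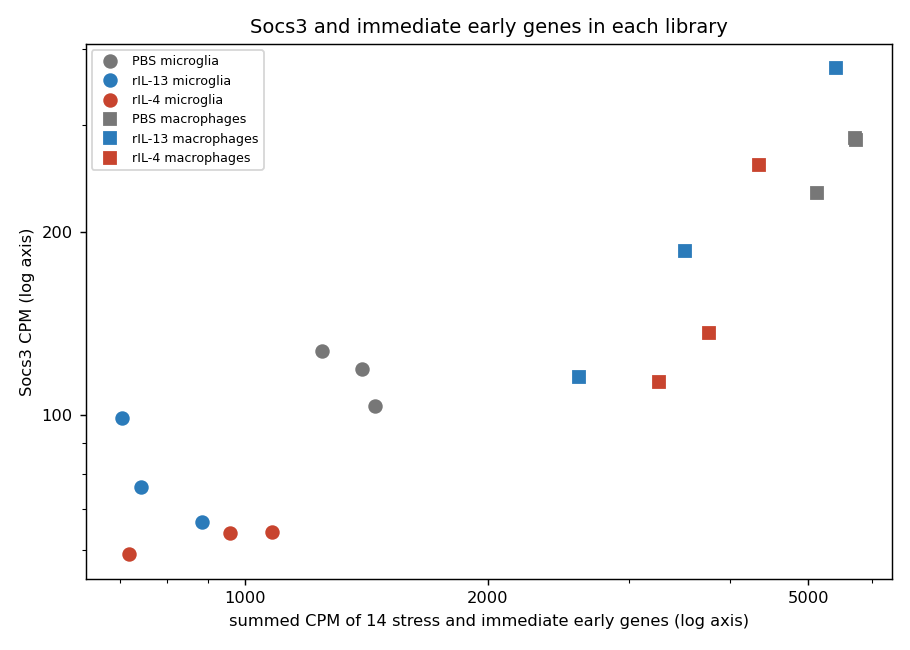
CPM of Socs3 against the summed CPM of 14 immediate early and stress genes in each of the 18 libraries, both axes on a log scale, coloured by treatment and shaped by cell type. Macrophages lie at 2594 to 5729 CPM of the list and microglia at 704 to 1449 CPM.

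Socs5 (chr17:87107679-87137839, plus strand, ENSMUSG00000037104.8), described as an inhibitor of IL-4 receptor and EGF receptor signalling, rose in rIL-4 macrophages. It stood there at 6.23, 4.87 and 4.38 CPM with PBS, at 4.82, 9.27 and 7.00 CPM with rIL-13 and at 11.7, 12.7 and 8.52 CPM with rIL-4. The rIL-4 mice were above the PBS mice, and the rIL-13 mice overlapped both. The log2 fold change was 1.17 ± 0.27 with rIL-4 (2.25-fold, adjusted p = 0.0170, edgeR) and 0.50 ± 0.27 with rIL-13 (adjusted p = 0.371). The rIL-4 call was lost without PBS mouse 2 (adjusted p = 0.0583) and without PBS mouse 3 (0.0740), over a range from 0.000790 to 0.0740. In microglia Socs5 stood at 17.5, 17.4 and 13.6 CPM with PBS, at 18.7, 22.1 and 23.0 CPM with rIL-13 and at 23.6, 19.5 and 19.8 CPM with rIL-4. All treated mice were above the PBS mice, but the log2 fold change of 0.39 with either cytokine did not pass (adjusted p = 0.425 for rIL-4 and 0.793 for rIL-13).

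Socs4, Socs6 and Socs7 were not DE against PBS in either cell type. Socs4 (chr14:47276931-47296102, plus strand) lay between 8.75 and 24.1 CPM over the 18 libraries, with group means from 12.5 to 19.0 CPM. Socs6 (chr18:88665224-88927481, minus strand), which binds the KIT and insulin receptors, lay between 16.4 and 38.7 CPM in microglia and between 43.7 and 81.3 CPM in macrophages. The log2 fold changes against PBS were between -0.18 and 0.08 for Socs4 and between -0.06 and 0.32 for Socs6. The Socs6 gene overlaps 2 models on its own strand, AC122398.2 and AC122398.3, and 1 on the opposite strand, AC118614.1, so its count is uncertain where they share exons. Socs7 (chr11:97362551-97398542, plus strand), an inhibitor that binds insulin receptor signalling proteins, was the lowest member per kb in 5 of the 6 groups and, with joined exons, in 4. In microglia it stood at 6.54, 4.0 and 2.66 CPM with PBS, 3.87, 4.60 and 1.10 CPM with rIL-13 and 1.88, 0.0958 and 2.69 CPM with rIL-4. Mouse 9 had 5 counts. The rIL-4 log2 fold change of -1.49 did not pass (adjusted p = 0.589, edgeR), and ran from -2.15 without mouse 10 to -0.93 without mouse 9.

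Whether the cytokines differed from each other was tested directly, and by edgeR 0 members were DE in rIL-4 mice against rIL-13 mice in either cell type. In microglia 0.0385% of genes were DE, and 1 member had an unadjusted p under 0.05, as had 11.4% of genes. In macrophages 0.25% of genes were DE, and 2 members had an unadjusted p under 0.05, as had 11.1% of genes. DESeq2 called 1 member in each cell type, where it called 3.58% of all genes in microglia and 3.09% in macrophages. In microglia Socs1 was higher with rIL-4 in every mouse (log2 difference 1.19 ± 0.34, adjusted p = 0.310) and Socs3 lower (-0.35 ± 0.16, adjusted p = 0.467), and these 2 members were the ones whose groups did not overlap (12.3% of genes). DESeq2 gave Socs1 an adjusted p of 0.0367, over alternatives from 0.0367 to 0.480. In macrophages Cish was higher with rIL-4 in every mouse (1.62 ± 0.46, adjusted p = 0.204) and was the 1 member without overlap (14.1% of genes). Without rIL-4 mouse 9 the log2 difference was 0.95 (adjusted p = 0.295), and without rIL-13 mouse 6 it was 2.13 (0.149). Cish was called by DESeq2 (adjusted p = 0.0175) and without a filter on low counts (0.0216), a fit that called 0.896% of genes, where the other alternatives reached 0.837.

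Microglia and macrophages of the same mice were then compared within each treatment. The main fit did not pair the libraries by mouse, which was done in an alternative with the mouse as a block. In PBS mice Socs2 and Socs5 were higher in microglia and Socs3 and Socs6 were lower, 4 members against 40.9% of all genes DE. The log2 differences were 1.99 ± 0.37 for Socs2 (adjusted p = 0.00263, edgeR), 1.68 ± 0.24 for Socs5 (0.000658), -1.17 ± 0.13 for Socs3 (0.000205) and -1.56 ± 0.24 for Socs6 (0.00110). These 4 calls held in 9 of 9 alternatives. The groups did not overlap for 6 members (55% of genes), the other two being Socs1 and Socs4, which were lower in microglia without passing the test.

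After treatment 3 of these differences were still DE. With rIL-13 the log2 differences were -1.46 ± 0.41 for Socs3 (adjusted p = 0.0348, edgeR), 1.61 ± 0.31 for Socs5 (0.00772) and -1.28 ± 0.31 for Socs6 (0.0184), where 26.7% of genes were DE and 45.4% did not overlap. All 3 calls were lost without mouse 7, with adjusted p of 0.180, 0.105 and 0.150 where 8.44% of all genes were DE, and that of Socs6 also without mouse 5 (0.0586). The alternatives ran from 0.00181 to 0.180, from 2.79e-05 to 0.105 and from 0.000636 to 0.150. With rIL-4 they were -1.45 ± 0.31 for Socs3 (adjusted p = 0.0125), 0.93 ± 0.26 for Socs5 (0.0347) and -1.30 ± 0.25 for Socs6 (0.00833), where 23.4% of genes were DE and 41.3% did not overlap. The call of Socs3 was lost without mouse 10 (0.0616), and that of Socs6 without mouse 9 or 10 (up to 0.0638). The call of Socs5 was lost with the mouse as a block (log2 difference 0.95, adjusted p = 0.0641), without a filter on low counts (0.0679) and without any 1 of the mice (0.0721 to 0.211), over a range from 0.00344 to 0.211. Socs2 was not DE between the cell types in treated mice, with log2 differences of 0.43 with rIL-13 (adjusted p = 0.390) and 0.52 with rIL-4 (adjusted p = 0.509).

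The ratio of microglia to macrophages within a mouse gave the same order in every animal for 3 genes. Socs3 was lower in microglia in 9 of 9 mice, with ratios from 0.248 to 0.578 and a median of 0.416. Socs6 was also lower in 9 of 9, from 0.221 to 0.477, and Socs5 higher in 9 of 9, from 1.54 to 3.88. Socs2 was higher in 8 of 9, from 0.985 to 5.42, Cish in 5 of 9, from 0.0501 to 2.09, and Socs1 in 1 of 9. How many of all genes kept 1 order in 9 of 9 mice was not counted. Between the cell types 55% of all genes did not overlap with PBS, 45.4% with rIL-13 and 41.3% with rIL-4. The cell types also differed in the immediate early and stress list, of which 12 of 13 tested genes were lower in microglia of PBS mice, and in the endothelial and fibroblast lists, of which 7 of 7 and 9 of 9 were higher. Their part in these ratios was not tested.

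**Figure D5:**
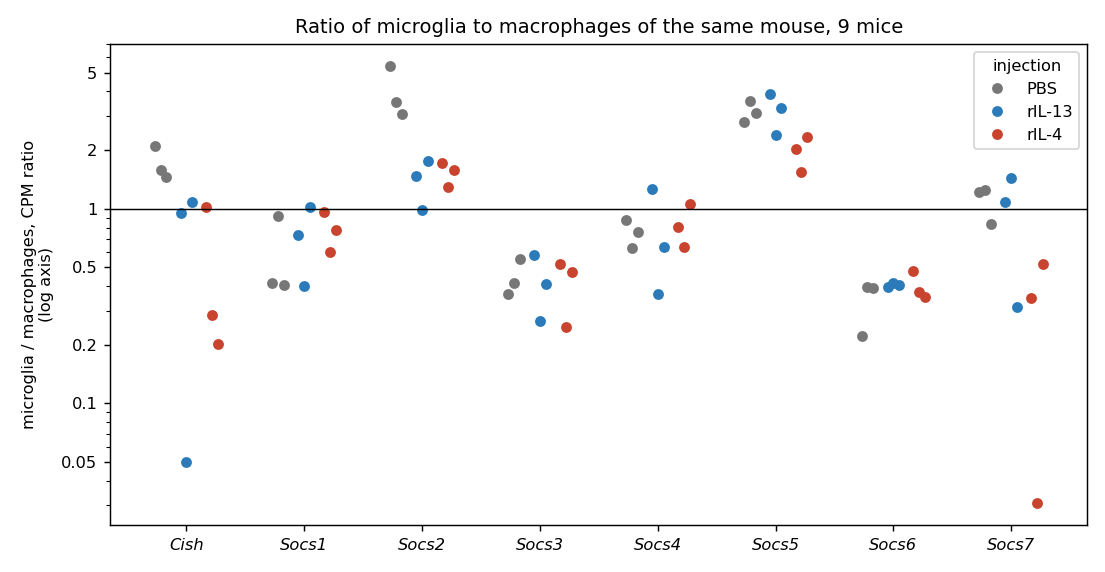
Ratio of microglia to macrophage CPM of each SOCS gene within each of the 9 mice, on a log scale with a line at equal levels, coloured by treatment. All 9 points lie below the line for Socs3 and Socs6 and above it for Socs5.

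Whether the response itself differed between the cell types was tested with an interaction term over the 18 libraries, without pairing by mouse. No member was DE for rIL-4, where 0.992% of genes were, or for rIL-13, where 0.0242% were, and DESeq2 called none in either. For rIL-4, 3 members were under an unadjusted p of 0.05, as were 12.4% of genes. Their difference in log2 fold change, microglia minus macrophages, was -2.19 ± 1.03 for Cish (adjusted p = 0.401, edgeR; -2.78 without rIL-4 mouse 8), -1.53 ± 0.63 for Socs2 (0.314) and -0.80 ± 0.35 for Socs5 (0.358). For rIL-13 this was 1 member beside 5.83% of genes, Socs2, with a difference of -1.61 ± 0.63 (adjusted p = 0.723). For Socs1 the difference was 0.31 with rIL-4 and 0.08 with rIL-13 (adjusted p = 0.946 and 1.000).

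The rest of the pathway was read from 12 lists with 122 genes, of which 120 were in the table. Of 4 receptor genes of IL-4 and IL-13, 1 was DE against PBS, Il13ra1, which was lower in rIL-4 macrophages (log2 fold change -0.64, adjusted p = 0.0329, edgeR). That call held in 6 of 12 alternatives and was lost in the model of all 18 libraries (0.236) and without any 1 of the mice but rIL-4 mouse 9 (0.0579 to 0.121). Of 4 JAK kinases, 1 was DE, Jak2. It went from 19.9 ± 2.33 CPM in PBS macrophages to 68.7 ± 22.1 CPM with rIL-13 (log2 fold change 1.84, adjusted p = 0.00369) and 111 ± 28.3 CPM with rIL-4 (2.56, adjusted p = 0.000247). The calls held in 11 of 12 and 12 of 12 alternatives, and the first was lost in the model of all 18 libraries (0.0529). In microglia Jak2 was at 12.0 ± 6.77 CPM with PBS, 28.9 ± 15.4 with rIL-13 and 56.4 ± 13.1 with rIL-4, and was not DE. Among the STAT genes, Stat4 was lower in macrophages with rIL-4 (-1.54) and with rIL-13 (-1.75). These calls held in 8 and 6 of 12 alternatives. The rIL-4 call was lost in the model of all 18 libraries (0.779) and without PBS mouse 1 or 3 or rIL-4 mouse 10 (0.0746 to 0.0903). The rIL-13 call was lost in the model of all 18 libraries (0.934) and without PBS mouse 1 or 3 or any rIL-13 mouse (0.0765 to 0.136). Stat6 itself was not DE, with log2 fold changes from 0.09 to 0.32. Il13ra1, Jak2, Stat4 and Stat6 were named after their values were seen.

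Of 12 other inhibitors of JAK-STAT signalling, 0 were DE in 3 of the comparisons. In rIL-4 macrophages the phosphatase gene Ptpn2 was higher (log2 fold change 1.28) and Ptpn6 (-0.55) and Ptprc (-0.61) were lower by edgeR, also named after their values were seen. The call of Ptpn6 held in 12 of 12 alternatives, that of Ptpn2 was lost without PBS mouse 1 (adjusted p = 0.0624) or 3 (0.0574), and that of Ptprc in the model of all 18 libraries (0.0922) and without PBS mouse 2 (0.0528) or rIL-4 mouse 10 (0.0741). Of 6 tested partners of the SOCS box in the E3 ligase, such as the elongins and Cul5, 0 were DE in the 4 comparisons.

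Both insulin receptor substrates, which IL-4 signalling also uses, were not DE where tested.

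The STAT6 response genes had the most calls of the 12 lists in each comparison against PBS. In rIL-4 macrophages 14 of 17 tested were higher and 1 was lower, with a median log2 fold change of 2.52, where the median of all genes was 0.02. In rIL-13 macrophages 10 of 17 were higher, with a median of 1.48. In microglia 8 of 15 were higher with rIL-4 (median 4.30) and 5 of 15 with rIL-13 (median 3.22). Retnla, a secreted protein of alternatively activated macrophages, went from a mean of 0.0300 CPM in PBS macrophages to 205 ± 70.6 CPM with rIL-13 and 844 ± 349 CPM with rIL-4. The chemokine gene Ccl24 went from 11 ± 3.94 CPM to 2723 ± 1878 and 4067 ± 2308 CPM, and the lectin gene Mgl2 from 2.13 ± 0.670 CPM to 114 ± 32.6 and 215 ± 81.5 CPM. In microglia Ccl24 went from 3.87 ± 1.14 CPM to 339 ± 81.2 CPM with rIL-13 and 1292 ± 545 CPM with rIL-4, and Retnla from 0.0784 to 87.7 ± 75.3 and 320 ± 32.1 CPM. Pdcd1lg2, the ligand PD-L2, was at 0 in the 3 PBS microglia libraries and at 4.16 ± 2.51 and 24.3 ± 8.95 CPM with rIL-13 and rIL-4, at least 60.8-fold and 356-fold higher, set against 3 counts per library. All of these were DE by edgeR, and their calls held in every alternative run except that of Pdcd1lg2 with rIL-13 in a fit of only the 6 libraries compared (adjusted p = 0.102). The 1 STAT6 response gene that was lower, Alox15, was at 0.129 ± 0.181 CPM with rIL-4 and 1.53 ± 0.645 CPM with PBS in macrophages (adjusted p = 0.0336), and its call held in 5 of 11 alternatives. It was lost in the model of all 18 libraries (0.194) and without PBS mouse 1, 2 or 3 or rIL-4 mouse 9 or 10 (0.0550 to 0.102).

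The other lists had few calls, and the shares of all genes that were higher or lower in the same comparisons are 1.33% and 0.887% for rIL-4 microglia, 0.283% and 0.0835% for rIL-13 microglia, 6.77% and 7.2% for rIL-4 macrophages and 2.53% and 1.66% for rIL-13 macrophages. Of the ligands tested, 1 of 8 was lower in microglia and 2 of 7 in macrophages with either cytokine, and 0 were higher. Of the receptors of other cytokines, 2 of 20 were higher in microglia with rIL-4 and 0 with rIL-13, and in macrophages 2 of 18 were higher and 1 lower with rIL-4 and 1 higher with rIL-13. Of the STAT3 response genes, 1 of 10 was higher in microglia with rIL-4 and 0 with rIL-13, and 1 of 10 was lower in macrophages with either. Of the STAT5 response genes, 1 of 9 was lower in microglia with rIL-4 and 0 with rIL-13, and in macrophages 3 of 9 were lower with rIL-4 and 2 with rIL-13.

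Tnf was at 28.6 ± 6.31 CPM in PBS microglia, 3.65 ± 0.867 with rIL-13 and 5.49 ± 2.46 with rIL-4, and in rIL-13 macrophages it was at 26.0 ± 15.2 CPM beside 114 ± 26.1 with PBS. These 3 differences were DE by edgeR, and held in 7 of 12, 8 of 12 and 10 of 12 alternatives. In microglia the rIL-13 call was lost without PBS mouse 1, 2 or 3 or rIL-13 mouse 5 or 7 (adjusted p = 0.0685 to 0.121) and the rIL-4 call without PBS mouse 1, 2 or 3 or rIL-4 mouse 10 (0.0664 to 0.115). In macrophages the rIL-13 call was lost without PBS mouse 2 (0.0501) or rIL-13 mouse 7 (0.0608). Cxcl10, a chemokine induced by interferon, was at 26.4 ± 4.26 CPM in PBS macrophages, 2.86 ± 1.87 with rIL-13 and 2.52 ± 0.903 with rIL-4 (adjusted p = 0.00551 and 0.00154), and both calls were lost in the model of all 18 libraries (0.293 and 0.124). Lif, a ligand of gp130, was at 6.51 ± 1.52 CPM in PBS macrophages and 1.36 ± 0.582 with rIL-13 (adjusted p = 0.00596), a call that was lost in the model of all 18 libraries (0.848). Of the cyclin genes on the STAT5 list, Ccnd2 fell from 14 ± 1.44 to 2.36 ± 1.10 CPM in rIL-4 macrophages (adjusted p = 0.0126), and Ccnd1 from 116 ± 21.4 to 60.0 ± 11.2 CPM in rIL-4 microglia (adjusted p = 0.0485), where the call held in 4 of 12 alternatives and was lost with DESeq2's size factors (0.0530), in a fit of only the 6 libraries compared (0.0538) and without any 1 of the mice (0.0557 to 0.164). Between the cytokines, 0 of 104 listed genes were DE in microglia and 1 of 100 in macrophages, Lifr, the receptor of LIF, at 5.76 ± 1.57 CPM with rIL-4 and 18.1 ± 5.95 with rIL-13 (adjusted p = 0.0451). That call held in 4 of 12 alternatives and was lost with at least 10 counts in every library (0.0536), in a fit of only the 6 libraries compared (0.128) and without any 1 of the mice (0.0506 to 0.181).

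The profiles of the members over the libraries are given as a description. After log2 CPM were centred within each cell type, Pearson's r over the 18 libraries was 0.907 between Socs1 and Socs2, 0.841 between Cish and Socs2 and 0.794 between Cish and Socs1, and -0.511 between Socs1 and Socs3. The treatment differences given above are part of these values, which are no separate evidence of them, and the libraries share normalization. Among 13010 genes, those most like Socs1 were Pdcd1lg2, Ilk, Ccl24, Prps1 and Atp5b, with r from 0.965 to 0.969. Those most like Socs2 included Impdh1, Slc7a2, Ap2a2 and Ssr2 (0.949 to 0.958), and those most like Cish were Fyn, Aqp3, Rps2-ps10, N4bp1 and Smpd2 (0.883 to 0.907). Socs3 was closest to Vcan, Elavl1, Cd14, Pilra and Cnn3 (0.867 to 0.909), and Socs5 to Ahr, Pim3, Pde4b, Zfp703 and Atxn7l3b (0.837 to 0.873).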

How the data were processed

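RNA was measured in full-length cDNA libraries (SMART-seq2, with neither molecular identifiers nor strand) from 18 samples of sorted microglia and macrophages. Per the labels and the methods, the authors mapped reads to GRCm38 with STAR 2.5.3a and quantified genes with RSEM 1.3.0. The deposited values were RSEM's expected counts, given as whole numbers without normalization, so the authors' counts entered the tests as they were. The annotation release is not given in the sources used here. RSEM divides reads that match several genes, so overlapping genes are uncertain. All 18 columns matched a sample by title.

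Differential expression was tested with edgeR 4.0.16 (R 4.3.3), in the 9 libraries of each cell type, in the 6 libraries of each treatment for cell types and in all 18 for interactions, with TMM normalization, filterByExpr, the quasi-likelihood test and Benjamini-Hochberg adjustment over all genes tested (threshold 0.05). Standard errors came from the F statistic. The scripts were tested on simulated data. The study's methods used DESeq2. Some listed genes are not reported here. Alternatives were DESeq2's size factors, no filter or at least 10 counts in every library, DESeq2 1.42.0, other sets of libraries, the mouse as a block and leaving out each mouse. The family members and the gene lists were chosen with earlier results of these data known. All 8 members were described. Listed genes were named by a rule (up to 3 called genes with the largest change in each direction in each cytokine comparison, and the 5 genes with the highest correlation to a called member), and others are said to be named after their values were seen. Both cell types came from the same mouse per the labels. Deviations from group means correlated between 0.0319 and 0.117 over the 9 mice, and 8 of 9 correlated best with their own mouse. No libraries were identical, and replicates differed by more than counting noise. Gene positions and lengths came from GENCODE M21, which matched 53360 of 53465 identifiers, and promoters from RefSeq. Library totals were between 35961305 and 45849829 counts. With 3 mice a group, the spread between mice limits precision more than this depth, and values from few counts cover counting error only.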

Additional observations from a re-analysis of the deposited data

How the results depend on the processing

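The members called DE kept their direction under every alternative run, and most of the limits concern the threshold. The number of members DE in rIL-13 microglia was 2 with DESeq2 and 0 in a fit of only the 6 libraries compared. Between rIL-4 and rIL-13, DESeq2 called 1 member in each cell type (beside 557 genes in microglia and 420 in macrophages, from 6 and 34 with edgeR), and edgeR without a filter called 1 in macrophages (beside 209 genes). Other edgeR fits called as few as 0 genes between the cytokines in microglia and 1 in macrophages, the latter without rIL-4 mouse 8. Leaving out 1 mouse at a time gave 1 to 2 members for rIL-4 microglia, where 0.459% to 1.62% of all genes were DE. For rIL-13 microglia it gave 0 to 1 member (0.135% to 0.308% of genes). For microglia against macrophages it gave 0 to 3 members with rIL-13 (8.44% to 25.4% of genes) and 0 to 2 with rIL-4 (12.9% to 18.3%). The causes were not tested. With the mouse as a replicate block, the log2 difference of Socs5 between cell types with rIL-4 was 0.95 and no longer passed, and the block, a pairing of both cell types of a mouse, changed no other call of a member. Over all genes the count in rIL-4 microglia moved most without PBS mouse 3 (75 genes, from 345) and with DESeq2 (1215), and in rIL-4 macrophages from 1900 to between 1041 and 2660. In rIL-13 macrophages it was 199 without PBS mouse 3 and 1163 with DESeq2, from 570, and in rIL-13 microglia 22 without PBS mouse 3 and 322 with DESeq2, from 57. Between the cell types it was 1197 without mouse 7 with rIL-13, from 3710, and 1798 without mouse 10 with rIL-4, from 3174. For the cell type difference in the response it was between 18 and 689 with rIL-4, from 164, and between 0 and 154 with rIL-13, from 4. Over the alternatives the median of all genes moved by at most 0.112 on the log2 scale, between the cell types with rIL-4.

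Members that were not called changed sign in some fits. Socs5 of microglia, rIL-4 against rIL-13, was at 0.00107 without a filter. Socs4 with rIL-13 against PBS in macrophages was at -0.00252 with DESeq2's size factors, -0.0100 with at least 10 counts in every library, -0.00237 with DESeq2, -0.00219 with all 18 libraries and -0.00715 with only the 6 compared. Leaving out 1 mouse at a time also turned the sign of others, given as lowest and highest log2 values. For rIL-4 against PBS in microglia, this gave Socs4 -0.0462 to 0.25. For rIL-13 against PBS in microglia, this gave Socs4 -0.58 to 0.0361, Socs6 -0.0509 to 0.43. For rIL-4 against rIL-13 in microglia, this gave Socs5 -0.0934 to 0.0605, Socs6 -0.14 to 0.37. For rIL-4 against PBS in macrophages, this gave Socs4 -0.12 to 0.0763, Socs6 -0.0372 to 0.20. For rIL-13 against PBS in macrophages, this gave Socs3 -0.77 to 0.12, Socs4 -0.24 to 0.15, Socs6 -0.30 to 0.15, Socs7 -0.25 to 0.12. For rIL-4 against rIL-13 in macrophages, this gave Socs2 -0.00254 to 0.99, Socs3 -0.83 to 0.20, Socs4 -0.16 to 0.24, Socs6 -0.0497 to 0.38. For microglia against macrophages with rIL-13, this gave Cish -1.52 to 0.0370, Socs7 -0.49 to 0.33. For the cell type difference in the rIL-4 response, this gave Socs3 -0.49 to 0.0931, Socs4 -0.11 to 0.22, Socs6 -0.0109 to 0.36. For the cell type difference in the rIL-13 response, this gave Socs1 -0.19 to 0.60, Socs3 -0.55 to 0.0886, Socs4 -0.72 to 0.29, Socs5 -0.25 to 0.13, Socs7 -0.72 to 0.0615.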
